A study of Arabidopsis thaliana with 14 samples.

Results

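Endoglucanases of glycoside hydrolase family 9 (GH9) were followed through roots and inflorescences of Arabidopsis thaliana. The 7 genes described are GH9A4, GH9B7, GH9B8, GH9B11, GH9B13, GH9C1 and GH9C2, each read by 1 probe set that names it alone in the platform annotation, of 22810 probe sets on the array. They were picked from the family with their levels, their genotype differences and their tissue ratios in these same arrays known, so all 3 are given as description. Whether a gene passed the fit's threshold is printed as part of that description and supports nothing. The family list holds 25 loci, of which 8 other genes also have a probe set of their own, and 2 further probe sets are each shared by a pair of GH9 genes.

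GH9 enzymes are endo-1,4-beta-glucanases, which cut internal bonds of glucan chains such as cellulose in the plant cell wall. Class A includes the membrane-anchored KORRIGAN enzyme that works with cellulose synthesis, class B enzymes are secreted into the wall, and class C enzymes carry an added carbohydrate-binding module. Wall loosening and remodelling of this kind accompany cell elongation in roots and root hairs and the growth of floral organs and pollen.

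The mutant, labelled gir (gir1 in the design text), was compared with its wild type Col-7. Root arrays (3 gir, 3 Col-7) came from plants aged 21 days that had been moved from agar plates with 0% glucose to plates with 4% glucose, a treatment that both genotypes received. Inflorescence arrays (4 gir, 4 Col-7) came from plants aged 33 days grown in soil, with open and opening flowers removed, again in both genotypes. Tissue therefore differs together with age, medium and glucose, and these cannot be told apart. The array controls separate the tissues too: the dap poly-A control read 235 to 400 in inflorescences and 0.874 to 21.4 in roots, the actin 3' to 5' ratio was 1.99 to 2.34 in inflorescences and 1.4 to 1.72 in roots, and the GAPDH ratio was 1.12 to 1.34 in inflorescences and 0.851 to 0.976 in roots. Their part in the tissue ratios was not tested. The locus mutated in gir is not given in the sources used here, so the mutation itself was not checked on the arrays.

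Values are MAS5 intensities, the summary signal of a probe set, with no detection calls. As a mark of a dim signal, each array's own 40th percentile was used, which lay between 111 and 120 in roots and between 126 and 140 in inflorescences. Testing in a tissue required that mark on 3 or more root arrays, or on 4 or more inflorescence arrays. Differences are given on the scale of log2(intensity + 26), gir minus Col-7, with the standard error (SE) of the fit. Arrays of 1 group correlated at 0.983 to 0.993. Root hair expansins EXPA7 and EXPA18 were summed at 2251 to 2368 in gir roots and 1933 to 2061 in Col-7 roots and lay below the mark in every inflorescence array. The 5 measured tapetum and early anther markers lay below it in every root array. In a bulk sample, fewer cells of a type and less RNA per cell cannot be told apart.

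GH9A4 (AT3G43860), the class A member, was bright in wild-type inflorescences, near or below the dim mark in gir inflorescences and dim in roots. Its intensity was 151, 185, 126 and 88.4 in the gir inflorescences, against 999, 936, 978 and 1131 in the Col-7 inflorescences. The groups did not overlap, and 2 of the 4 gir arrays fell below the 40th percentile. The means were 138 ± 40.7 in gir and 1011 ± 84.2 in Col-7 (SD, n = 4 each), so that gir held 13.6% of the Col-7 level. The log2 difference was -2.69 ± 0.16 (SE), with a 95% interval of -3.06 to -2.33. Pairing the inflorescence arrays by replicate number gave -2.53, -2.19, -2.72 and -3.34, each below 0. In roots GH9A4 had 12.3, 2.43 and 3.00 in gir and 20.3, 8.42 and 20 in Col-7, below the 40th percentile on all 6 arrays, and it was not tested there.

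GH9B11 (AT2G44560), a secreted class B member, had the same order of groups. Its intensity was 104, 63.4, 39.5 and 28.6 in gir inflorescences, against 682, 585, 587 and 776 in Col-7 inflorescences. Every gir value was below the 40th percentile of its array, while every Col-7 value was above it. The means were 58.8 ± 33.2 in gir and 657 ± 91.0 in Col-7 (SD, n = 4 each), the measured gir signal being 8.94% of that of Col-7. The fitted difference was -3.08 ± 0.23 (95% interval -3.6 to -2.57). Since the gir signal lies in the dim range, the bound is that GH9B11 was at least 5.08-fold lower in gir, taking each dim array at its 40th percentile. The 4 numbered pairs gave -2.45, -2.77, -3.23 and -3.88. Roots showed 1.51, 2.22 and 9.22 in gir and 14.3, 6.35 and 6.52 in Col-7, all in the dim range.

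GH9B11 lies in a run of neighbouring GH9 genes, GH9B9 to GH9B12, in the TAIR10.1 gene order. The probe set shared by GH9B10 and GH9B9 read 5.12 to 20.4 in gir inflorescences and 9.39 to 32.2 in Col-7 inflorescences. That of GH9B12 read 23.4 to 57.0 in gir inflorescences and 17.3 to 49.6 in Col-7 inflorescences. Both ranges overlap between genotypes and stay in the dim range, where neither was tested.

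**Figure D1:**
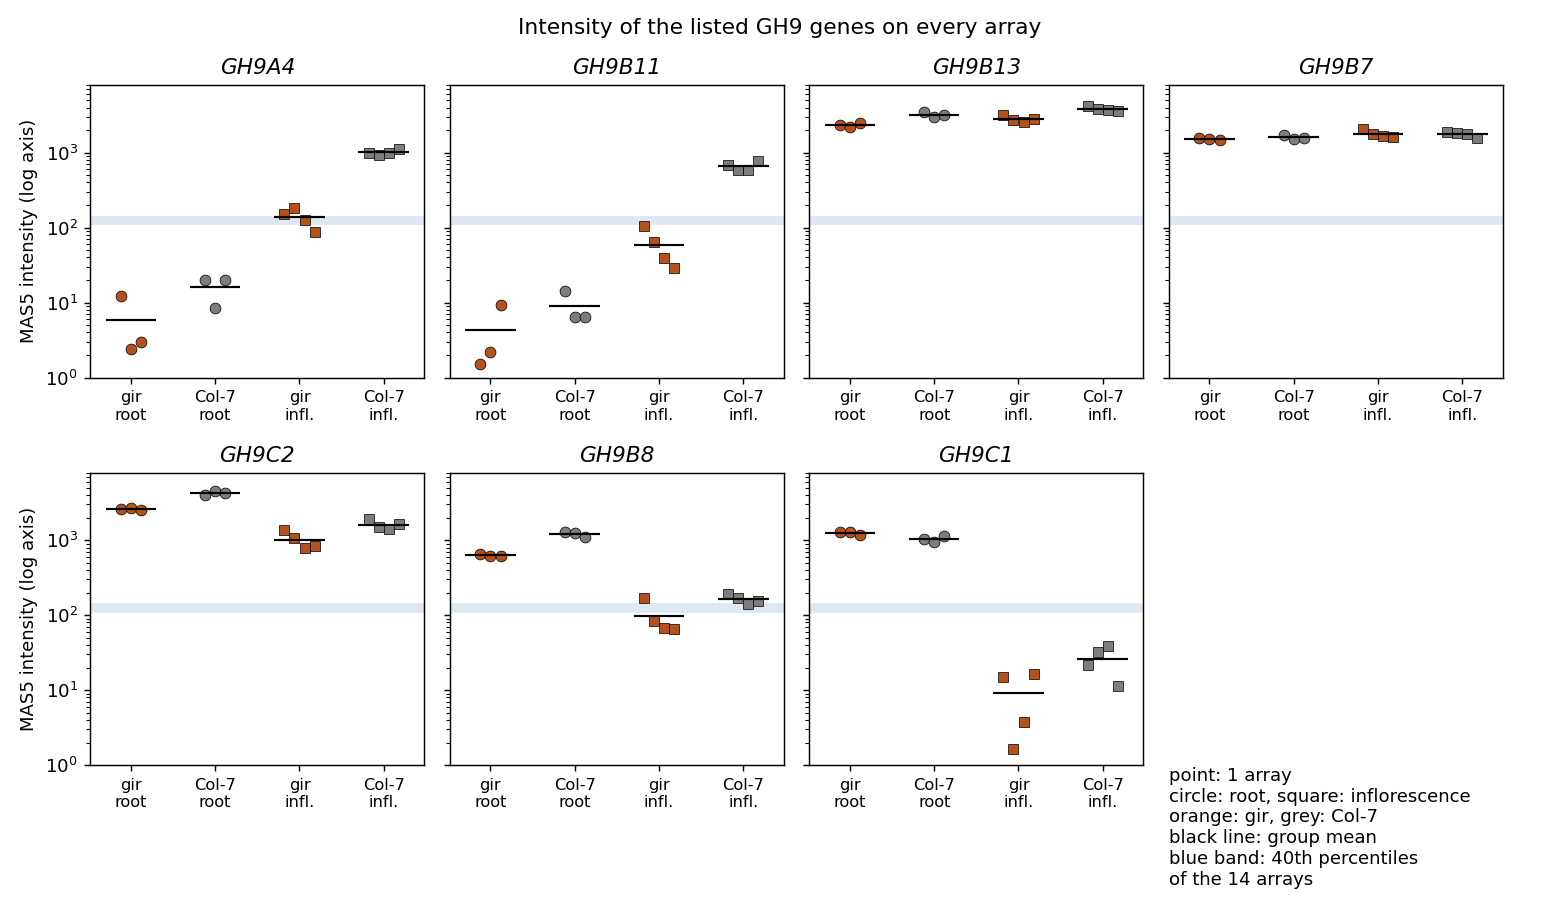
MAS5 intensity (log axis) of the 7 GH9 genes on all 14 arrays, gir in orange and Col-7 in grey, roots as circles and inflorescences as squares; black lines are group means and the blue band spans the 40th percentiles of the arrays. GH9A4 and GH9B11 stand above the band mainly in Col-7 inflorescences, GH9C1 in roots of both genotypes, and GH9B7 and GH9B13 in all 4 groups.

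GH9B13 (AT4G02290), also of class B, was bright in all 4 groups and lower in gir in each tissue. In roots it measured 2352, 2215 and 2455 in gir and 3534, 2997 and 3148 in Col-7. In inflorescences it measured 3140, 2724, 2580 and 2785 in gir and 4129, 3815, 3694 and 3636 in Col-7. The genotypes did not overlap in either tissue. The root difference was -0.46 ± 0.08 (95% interval -0.65 to -0.27), which left 72.6% of the Col-7 level, and it did not pass when dim probe sets were kept in the fit. The inflorescence difference was -0.44 ± 0.08 (95% interval -0.63 to -0.26), which left 73.5%. The 4 numbered inflorescence pairs gave -0.39, -0.48, -0.51 and -0.38. The group means ran from Col-7 inflorescence (3819) through Col-7 root (3226) and gir inflorescence (2807) to gir root (2341). Only the middle pair of neighbours in that order, Col-7 root and gir inflorescence, overlapped.

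GH9B7 (AT1G75680) was the class B member with the least difference between genotypes. It read 1581, 1502 and 1479 in gir roots and 1714, 1539 and 1570 in Col-7 roots. It read 2094, 1778, 1649 and 1608 in gir inflorescences and 1862, 1821, 1747 and 1556 in Col-7 inflorescences. Genotypes overlapped in both tissues. The differences were -0.08 ± 0.07 in roots (95% interval -0.24 to 0.09) and 0.02 ± 0.10 in inflorescences (95% interval -0.20 to 0.25). Group means lay between 1521 and 1782, and each group overlapped its neighbour in the order of the means. The ends of that order did not overlap, gir roots reaching 1581 and gir inflorescences starting at 1608.

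GH9B8 (AT2G32990), the last class B member of the list, was a root gene. Its intensity was 653, 625 and 617 in gir roots, against 1269, 1244 and 1109 in Col-7 roots. The gir arrays lay within a narrow band (632 ± 18.5, SD, n = 3) at 52.3% of the Col-7 mean (1207 ± 86.1). The root difference was -0.90 ± 0.08 (95% interval -1.08 to -0.73). In inflorescences it read 171, 83.4, 67.1 and 66.0 in gir and 193, 172, 140 and 155 in Col-7. There the genotypes overlapped, because gir replicate 1 stood inside the Col-7 range, and 3 gir arrays and 1 Col-7 array were dim. The inflorescence difference of -0.71 ± 0.22 (95% interval -1.19 to -0.22) passed with all arrays and no longer passed when any 1 array other than gir replicate 1 was left out. Without gir replicate 1 it was -0.96.

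GH9C2 (AT1G64390), a class C member, was bright in roots and lower, but well above the dim range, in inflorescences. Roots had 2642, 2727 and 2553 in gir and 4037, 4537 and 4319 in Col-7. The root difference was -0.70 ± 0.07 (95% interval -0.86 to -0.53), leaving 61.5% of the Col-7 mean. Inflorescences had 1380, 1075, 796 and 837 in gir and 1924, 1494, 1396 and 1628 in Col-7. The genotypes did not overlap there by a small margin, the highest gir array at 1380 and the lowest Col-7 array at 1396. The inflorescence difference was -0.67 ± 0.17 (95% interval -1.04 to -0.29), leaving 63.4%. In the order of the group means, Col-7 root, gir root, Col-7 inflorescence and gir inflorescence, no neighbours overlapped.

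GH9C1 (AT1G48930), the other class C member and known from root hairs, was the 1 listed gene with a higher mean in gir roots. It read 1269, 1269 and 1183 in gir roots and 1039, 945 and 1135 in Col-7 roots. The groups did not overlap, gir above Col-7, as for 15.5% of all probe sets tested in roots (means 1240 ± 50.1 in gir and 1039 ± 95 in Col-7, SD, n = 3 each). The difference of 0.25 ± 0.08 (95% interval 0.06 to 0.44) did not pass the threshold over all probe sets. Inflorescences gave 14.9, 1.62, 3.82 and 16.5 in gir and 21.5, 32.1, 39.4 and 11.2 in Col-7, all in the dim range. Of the 2 root hair markers beside it, EXPA7 rose in gir roots (1010 ± 34.6 in gir and 737 ± 19.6 in Col-7, 0.44 ± 0.07, adjusted p = 0.0052, limma). EXPA18 was at 0.04 ± 0.08. Their part in the GH9C1 values was not tested.

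**Figure D2:**
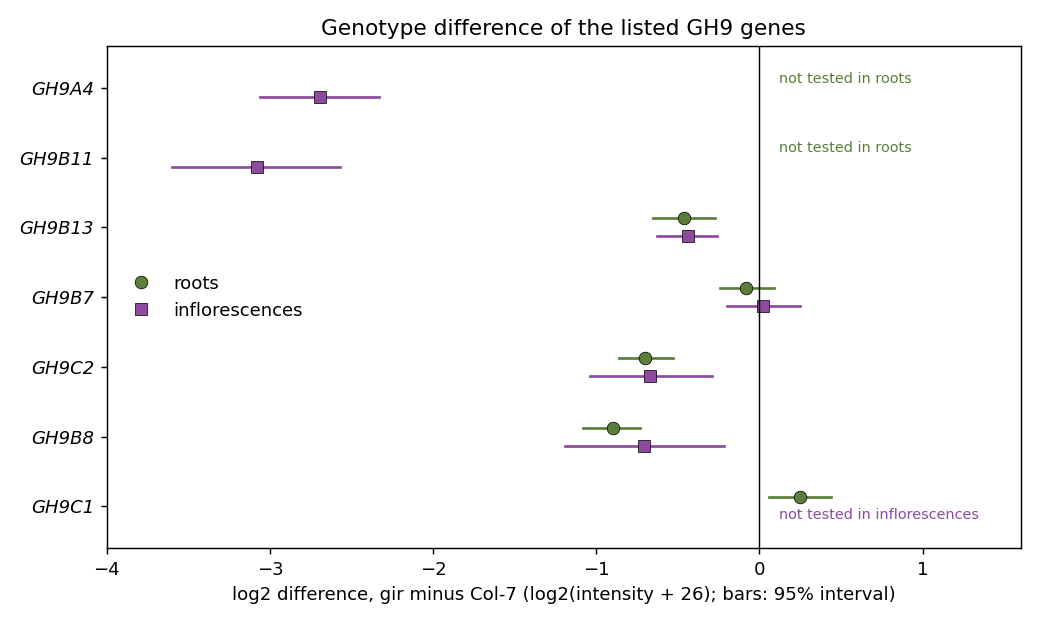
Genotype difference, gir minus Col-7 on the log2(intensity + 26) scale, of the 7 GH9 genes in roots (green circles) and inflorescences (purple squares), with 95% intervals of the fit. GH9A4 and GH9B11 lie at -2.69 and -3.08 in inflorescences. Root and inflorescence values are -0.46 and -0.44 for GH9B13 and -0.70 and -0.67 for GH9C2. They are -0.90 and -0.71 for GH9B8, with a wide inflorescence interval (-1.19 to -0.22). Both GH9B7 intervals cross 0.

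In roots 5 of the 7 genes were tested, and 3 of them (GH9B8, GH9B13 and GH9C2) passed as lower in gir, none as higher. Over all probe sets tested in roots, 6.36% were called lower and 5.49% higher. The median difference was -0.46 over the 5 genes and -0.01 over all probe sets. In inflorescences 6 were tested and 5 passed as lower (all but GH9B7), against 12.5% of all probe sets called lower. The medians were -0.69 over the 6 genes and 0.06 over all. GH9B11, among the 5, was dim on every gir array and entered the fit only through Col-7 inflorescences, so nothing is read from its call. GH9A4 was dim on 2 of the 4 gir arrays and would not have met the filter without Col-7 inflorescences. Nothing is read from its call either. Of the 4 genes tested in both tissues, GH9B8, GH9B13 and GH9C2 were lower in both, where 0.781% of all probe sets tested in both were. Groups without overlap, gir below Col-7, were seen for 3 of 5 genes in roots (17.3% of all probe sets) and 4 of 6 in inflorescences (13.0%). The genes were chosen on these contrasts, so the shares over all probe sets stand beside the counts only as a scale.

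The root arrays also differed between genotypes in their control probe sets. The 25S ribosomal RNA control read 390 to 774 in gir roots and 865 to 1270 in Col-7 roots, and the actin 3' to 5' ratio, a measure of RNA integrity and labelling, was 1.6 to 1.72 in gir roots and 1.40 to 1.56 in Col-7 roots. Neither pair of ranges overlaps. The GAPDH 3' to 5' ratio (0.896 to 0.976 in gir roots and 0.851 to 0.923 in Col-7 roots) and the dap control (0.874 to 21.4 in gir roots and 1.24 to 6.49 in Col-7 roots) did overlap. The part of these controls in the root falls of GH9B8, GH9B13 and GH9C2 was not tested. In inflorescences the 25S control went with the replicate number instead (359, 954, 2770 and 8660 in gir and 345, 835, 3420 and 6590 in Col-7). The difference of GH9A4 was -2.36 with replicates 1 and 2 of both genotypes and -3.03 with replicates 3 and 4. In the same 2 subsets GH9B11 was at -2.61 and -3.55, GH9C2 at -0.47 and -0.87, and GH9B13 at -0.44 and -0.45. With replicates 1 and 2 alone, GH9C2 and GH9B13 did not pass.

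The wild-type tissue ratio was taken as Col-7 inflorescence minus Col-7 root on the log2 scale. It shares the Col-7 inflorescence arrays with the inflorescence genotype difference, so the values are given side by side and no relation between them was computed. GH9A4 had a ratio of 4.63 ± 0.18, at least 8.45-fold higher in inflorescences, beside a genotype difference of -2.69. GH9B11 had 4.28 ± 0.23, at least 5.47-fold higher, beside -3.08. GH9B13 had 0.24 ± 0.09 beside -0.44, and GH9B7 had 0.12 ± 0.10 beside 0.02. On the root side, GH9C2 had -1.41 ± 0.16 beside -0.67, and GH9B8 had -2.70 ± 0.20 beside -0.71. GH9C1 had -4.38 ± 0.18, at least 7.60-fold higher in Col-7 roots than in Col-7 inflorescences, and no inflorescence genotype difference to set beside it. Among the 6 tested, chosen with both values known, GH9A4 and GH9B11 had the 2 largest falls and the other 4 lay between -0.71 and 0.02. GH9B8 lay near the dim mark in inflorescences, which limits how far its value could fall. The other tested GH9 probe sets had fitted values of 3.19 beside -1.04 (GH9B15 and GH9B14) and 1.82 beside -0.35 (GH9B18). GH9B5 had 1.17 beside -1.23, and GH9A3 had -0.34 beside 0.06. No relation is read from these values.

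**Figure D3:**
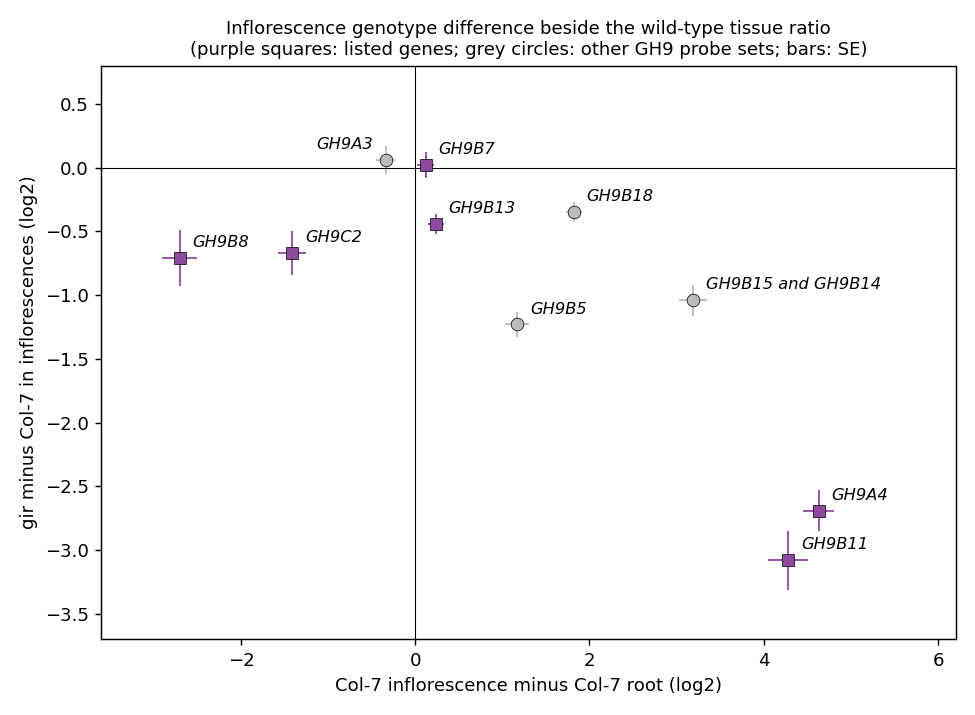
Inflorescence genotype difference (vertical, gir minus Col-7, log2) beside the wild-type tissue ratio (horizontal, Col-7 inflorescence minus Col-7 root, log2) for the listed GH9 genes (purple squares) and the other tested GH9 probe sets (grey circles), with SE bars. Points are fitted values, also where a gene is dim in 1 group. GH9A4 and GH9B11 sit apart at the lower right; the axes share the Col-7 inflorescence arrays.

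In this ratio 3 of the 7 genes were called higher in Col-7 inflorescences (GH9A4, GH9B11 and GH9B13) and 3 higher in Col-7 roots (GH9B8, GH9C1 and GH9C2), where 38.2% and 39.9% of all probe sets were. The same ratio within gir was 2.34 ± 0.18 for GH9A4 and 0.26 ± 0.09 for GH9B13. It was 0.22 ± 0.10 for GH9B7, -1.38 ± 0.16 for GH9C2, -2.50 ± 0.20 for GH9B8 and -5.19 ± 0.18 for GH9C1. The GH9B7 value did not pass as reported and passed in 4 of 12 alternatives. As GH9C1 was dim on every inflorescence array, its bound is at least 9.65-fold higher in gir roots than in gir inflorescences. In gir 3 genes were again called higher in inflorescences and 3 lower, beside 40.5% and 37.0% of all probe sets. One of these calls was GH9B11, which was dim on every gir array and entered the fit only through Col-7 inflorescences, so nothing is read from it and no gir ratio is given for it. With each array centred on its median, GH9B13 no longer passed in either ratio (0.11 in gir, 0.10 in Col-7). Its Col-7 ratio also did not pass without Col-7 inflorescence replicate 1, Col-7 root replicate 2 or Col-7 root replicate 3 (0.19 to 0.23), nor its gir ratio without gir root replicate 2 (0.22). GH9A4 was dim on every gir root array and on 2 of the 4 gir inflorescence arrays (88.4 to 185). Its gir ratio is thus of measured signals only, and no bound is given for it.

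For the 4 genes tested in both tissues, the genotype effect in inflorescences minus that in roots was fitted. It was 0.01 ± 0.12 for GH9B13 (95% interval -0.24 to 0.27), 0.03 ± 0.22 for GH9C2 (-0.43 to 0.49), 0.20 ± 0.28 for GH9B8 (-0.40 to 0.79) and 0.10 ± 0.13 for GH9B7 (-0.18 to 0.38). With limma, 0 of 4 passed, and 0 had an unadjusted p under 0.05, beside 18.2% of all probe sets called. A p that misses the threshold does not show equal effects, and the interval of GH9B8 reaches a difference of 0.79.

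Markers of mature pollen were set beside GH9A4 and GH9B11. The 6 measured late pollen markers were summed at 1045 to 1297 in gir inflorescences and 5342 to 5910 in Col-7 inflorescences. All 5 that were tested were called lower in gir, beside 12.5% of all probe sets. Their median difference was -2.19, or -1.67 with the 2 dim ones at their bounds, beside 0.06 over all probe sets. VEX1, a sugar transporter gene of the pollen vegetative cell, measured 341 ± 73.1 in gir and 2670 ± 136 in Col-7 (-2.90 ± 0.12, adjusted p = 1.2e-07, limma). ACT12, a pollen actin, measured 137 ± 30.8 in gir and 695 ± 33.2 in Col-7 (-2.17 ± 0.12, adjusted p = 5.6e-07). Its gir arrays ran from 106 to 175, on both sides of the dim mark, so nothing is read from its call. TUA1, a pollen alpha-tubulin also detected in roots, measured 527 ± 23.3 in gir and 1250 ± 78.0 in Col-7 (-1.20 ± 0.08, adjusted p = 9.7e-07). ANX1, ANX2 and MGH3 were below the 40th percentile on every gir inflorescence array. ANX2 and MGH3 thus entered the fit only through Col-7 inflorescences, and nothing is read from their calls. ANX2, a receptor kinase of pollen tubes, was at least 2.96-fold lower in gir (34.8 ± 19.0 in gir and 381 ± 32.7 in Col-7). The sixth marker, ANX1, was not tested and read 22.6 in gir and 129 in Col-7 on average.

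Markers of the tapetum, the cell layer that feeds pollen, and of the early anther were also set beside them. These were summed at 5752 to 6285 in gir inflorescences and 5523 to 6434 in Col-7 inflorescences, and 0 of 5 passed (1 at an unadjusted p under 0.05, limma). As a share of the Col-7 inflorescence mean of the same gene, the gir arrays lay at 8.75 to 18.3% for GH9A4 and 4.35 to 15.8% for GH9B11. They lay at 3.30 to 43.8% over the late pollen markers and at 84.6 to 140% over the tapetum and early anther markers. Both measured leaf markers were called higher in gir inflorescences, beside 12.5% of all probe sets. LHCB4.1, a light-harvesting protein gene, was higher by 0.32 ± 0.08 (adjusted p = 0.018, limma). RCA, for Rubisco activase, was higher by 0.26 ± 0.08 (adjusted p = 0.033, limma). The part of these marker genes in the values of GH9A4 and GH9B11 was not tested.

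**Figure D4:**
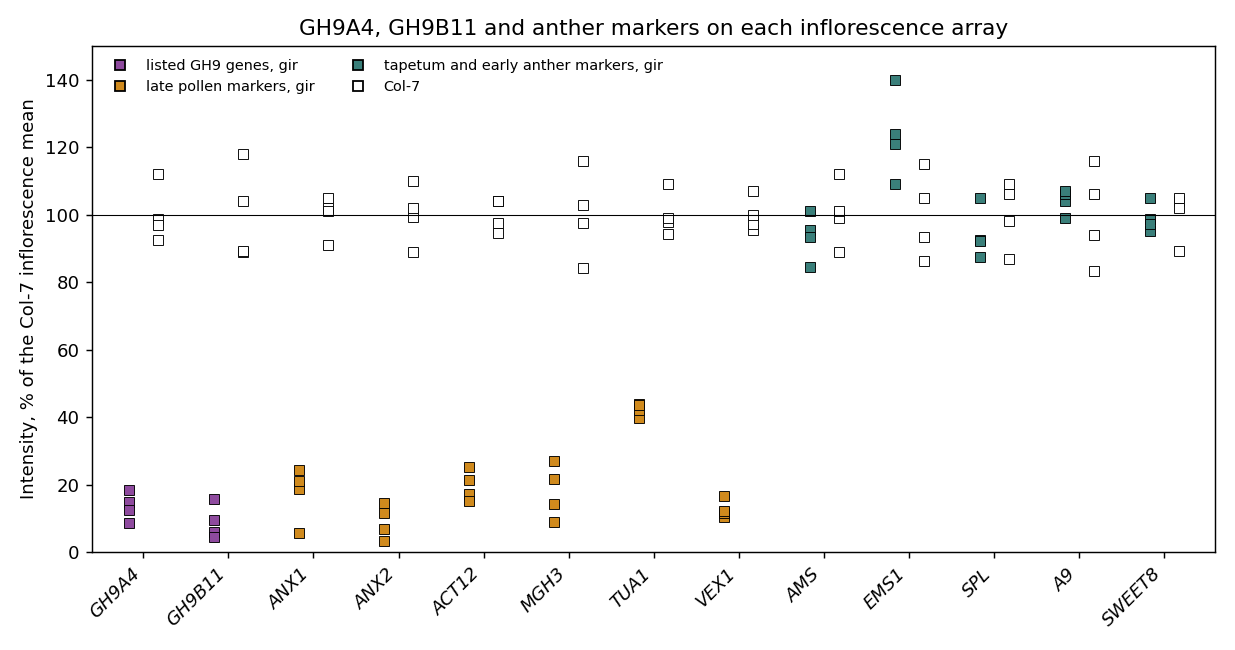
Intensity of GH9A4, GH9B11, 6 late pollen markers and 5 tapetum and early anther markers on each inflorescence array, as a percentage of that gene's Col-7 inflorescence mean (filled squares gir, open squares Col-7). The gir arrays lie at 4.35 to 18.3% for the GH9 genes, 3.30 to 43.8% for late pollen markers and 84.6 to 140% for tapetum and early anther markers.

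By Pearson correlation of log2 values over the 14 arrays, the genes most like GH9B11 among 8585 candidates were AT1G04470 (0.995), the pectate lyase homologue AT59 (0.994) and AT5G62750 (0.993). Those most like GH9A4 were AT3G26860, AT1G54070 and AT2G19000, at 0.996 each. GH9C2 was closest to IRX15-L (0.983), a gene of xylan synthesis, and to GH9B8 (0.981). GH9B8 was closest to AT2G32170 (0.991), AT1G58170 (0.985) and the expansin EXPA15 (0.981), and GH9C1 to AT1G69526 (0.997), GSTU25 and AT4G00700 (0.996 each). Likeness was lower for GH9B7 (GLR3.3, a glutamate receptor-like channel, 0.928) and GH9B13 (AT3G62590, 0.927). Within the list, GH9A4 and GH9B11 correlated at 0.979, GH9B8 and GH9C1 at 0.942. All these values rest on 4 group means and shared arrays, and are descriptions.

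Of the 8 other GH9 genes with a probe set of their own, 1 was tested in roots and passed as lower in gir (6.36% of all probe sets did). In inflorescences 3 were tested and 2 passed as lower (12.5% of all probe sets did). GH9B5 was at least 1.33-fold lower in gir inflorescences (58.7 in gir and 171 in Col-7). It was dim on all gir inflorescence arrays and entered that fit only through Col-7, so nothing is read from its call. In Col-7, GH9B5 was at least 1.43-fold higher in inflorescences than in roots. GH9B18 was lower in gir inflorescences by less (239.5 in gir and 313.5 in Col-7, -0.35 ± 0.08, adjusted p = 0.0074, limma), with a wild-type ratio of at least 2.62-fold. The probe set shared by GH9B15 and GH9B14 had -1.04 ± 0.12 (adjusted p = 0.00013), with a wild-type ratio of at least 3.37-fold. GH9A3, of class A, was lower in gir roots (151 in gir and 212 in Col-7, -0.42 ± 0.10, adjusted p = 0.026) and not in inflorescences (0.06 ± 0.11). For GH9A3 the tissue difference itself passed (0.48 ± 0.15, adjusted p = 0.039). GH9B6, GH9B12, GH9B16, GH9B17 and GH9C3 were too dim to test in either tissue.

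Other wall genes were counted from family lists. Cellulose synthesis was represented by 2 of its 15 listed genes, COB, which orients cellulose deposition, and CC1, a companion of the cellulose synthase complex. With limma, 0 of 2 passed in either tissue, and 0 at an unadjusted p under 0.05. COB was at 0.04 ± 0.07 in roots and 0.08 ± 0.12 in inflorescences. Expansins, which loosen the wall without cutting glucan chains, split in direction. Of the 36 listed, 18 had a probe set of their own. In roots 5 of 14 tested were lower in gir and 3 higher, beside 6.36% and 5.49% of all probe sets. Of the 5, 1 was dim on every gir root array and entered the fit only through Col-7 roots. The lower genes included EXPA15 (1740 in gir and 3790 in Col-7, -1.11 ± 0.07, adjusted p = 0.00026), EXPB3 (2030 in gir and 3530 in Col-7, -0.79 ± 0.07, adjusted p = 0.00074) and EXPA4 (4550 in gir and 7450 in Col-7, -0.71 ± 0.07, adjusted p = 0.0012). The 3 that were higher were EXPA9 (1460 in gir and 884 in Col-7, 0.71 ± 0.08, adjusted p = 0.0014), EXPA7 and EXPA8. In inflorescences 4 of 11 were lower and 1 higher, beside 12.5% of all probe sets in each direction. EXPB5 was at least 4.40-fold lower (54.2 in gir and 567 in Col-7) and EXPA24 at least 3.84-fold (67.7 in gir and 494 in Col-7). Both were dim on all gir arrays and entered the inflorescence fit only through Col-7, so nothing is read from their calls. EXPA8 was lower there (689 in gir and 2670 in Col-7, -1.94 ± 0.17, adjusted p = 1.1e-05), while in roots it was higher in gir (711 in gir and 471 in Col-7, 0.57 ± 0.07, adjusted p = 0.0022). EXLA1 was lower by less (-0.46 ± 0.09, adjusted p = 0.0039). EXPA20 was the 1 higher gene (0.48 ± 0.10, adjusted p = 0.0052). The median expansin difference was 0.03 in roots and -0.08 in inflorescences, beside -0.01 and 0.06 over all probe sets.

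Xyloglucan endotransglucosylase/hydrolases cut and rejoin the hemicellulose that ties cellulose fibrils together. Of the 33 listed, 10 had a probe set of their own. Of the 7 tested in roots, 1 was lower in gir and 1 higher. Over all probe sets tested in roots, 6.36% were called lower and 5.49% higher. XTH32 was lower there (365 in gir and 482 in Col-7, -0.37 ± 0.09, adjusted p = 0.030, limma), and XTH19 was higher (2960 in gir and 2160 in Col-7, 0.45 ± 0.09, adjusted p = 0.015). In inflorescences 2 of 3 tested were higher, beside 12.5% of all probe sets. They were XTH32 (765 in gir and 438 in Col-7, 0.77 ± 0.11, adjusted p = 0.00048) and XTH16 (1980 in gir and 1230 in Col-7, 0.68 ± 0.20, adjusted p = 0.033).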

How the data were processed

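The authors deposited linear-scale intensities, 1 per probe set and array, for which MAS5 is named per the submitters' processing notes. The MAS5 version and the genome build are not given in the sources used here. Each array's mean without the lowest and highest 2% was 500, the scaling that sets them on a common level. From these intensities log2(intensity + 26) was computed, 26 being the 20th percentile of all values; on it, changes of dim signals are understated. Control probe sets (64) stayed out of every fit. Each tissue was fitted with limma 3.58.1 in R 4.3.3 (two-sided, Benjamini-Hochberg over all probe sets tested, threshold 0.05). Tissue ratios and the tissue difference came from a 4-group fit of all 14 arrays. Plots used Python 3.11.15 and matplotlib 3.10.9. The fits were tested on simulated data.

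Genes were named through the platform annotation, in which 13513 of 22810 probe sets name 1 gene, 503 several, and 8794 are not listed; 13436 of the single-gene sets were found in the TAIR10.1 gene table, used for names and gene order only. The 7 genes, the other lists and the markers were chosen with earlier results of these data known. All 7 are described on every array; from other lists up to 4 genes a tissue that passed are named by smallest p. EXPA7 and EXPA8 in roots, EXPA20, COB, CC1, EXPA18, ANX1 and MGH3 fall outside that rule and were named after their values were seen, and the most-like genes are the 3 of highest correlation.

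Titles gave each array's tissue and genotype. The labels do not say that replicates are separate plants or cultures, so p-values reflect only the spread among these samples, which may be technical, and the number of arrays limits precision. Same-numbered inflorescence arrays deviated together (correlations 0.587, 0.191, 0.203 and 0.516). Differently numbered ones ran from -0.538 to 0.402, the highest for gir replicate 4 with Col-7 replicate 3, so the numbers are not shown to be pairs. Inflorescence differences by number are given as description, and the reported fits carry no pairing. In roots the same-numbered correlations were 0.077, 0.007 and 0.017, and no differences by number are given. The roots' time on each plate differs between the label texts (11 days without glucose and 10 with it, or 7 days on the first plate). Alternatives were the pseudocount, the filter, the scaling, the samples in the fit, the replicate block and leaving out each array.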

Additional observations from a re-analysis of the deposited data

Results flagged for a closer look

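Of the 14 groups of 4 inflorescence arrays (7 genes in 2 genotypes), 1 had an array far from the others. GH9B8 read 171 in gir inflorescence replicate 1, while the other 3 gir inflorescence arrays read 66.0 to 83.4. Chance marks about 1 in 20 such groups.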

How the results depend on the processing

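Of 412 recomputed values of single genes, 372 kept their direction and their side of the threshold, 19 no longer passed, 4 newly passed and 17 changed sign. GH9A4 (-3.03 to -2.36) and GH9B11 (-3.55 to -2.61) passed as lower in gir inflorescences in all 17 alternatives, as did GH9B8 (-0.96 to -0.86) and GH9C2 (-0.74 to -0.65) in roots in all 13. GH9B11 was dim on every gir inflorescence array and met the filter only through Col-7, so nothing is read from its passing. GH9A4 was dim on 2 of the 4 gir inflorescence arrays, and its gir arrays alone would not have met the filter. Nothing is read from its passing either. GH9C1 in roots passed in none of 13 (0.19 to 0.32, adjusted p 0.057 to 0.53, limma). GH9B13 in roots had 0.058 without the filter. GH9B8 in inflorescences did not pass in 10 of 15, with adjusted p of 0.054 to 0.11 when 1 of 7 arrays was left out, and also with no filter (0.068), quantile normalization (0.057) and replicates 1 and 2 only (0.29). With replicates 3 and 4 only, a choice made after seeing the data, it was too dim to test.

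The count of listed genes called lower or higher in inflorescences was 2 with replicates 1 and 2 only and 4 to 5 when 1 array was left out. In roots it was 3 whenever 1 array was left out. For the tissue difference it was 2 without the filter and 0 with any array left out. It was 5 to 6 for the Col-7 tissue ratio and 5 to 7 for the gir tissue ratio. Over all probe sets, the root count of 1636 became 616 without the filter, 707 in a joint fit, and 814 to 1216 with 1 array left out, lowest without gir root replicate 2 (814) and gir root replicate 1 (863), and 1038 without Col-7 root replicate 2. The inflorescence count of 3487 became 1669 with replicates 1 and 2 only and 2670 to 4102 with 1 array left out. The tissue-difference count of 2168 became 3283 without the filter and 1441 with the stricter one, and 1644 to 2619 with 1 array left out. The cause of these shifts was not tested.

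GH9B7 in inflorescences was -0.05 without gir replicate 1, -0.03 without Col-7 replicate 4 and -0.02 with replicates 3 and 4 only (-0.05 to 0.07 with 1 array left out), and its Col-7 tissue ratio was -0.03 with median centring. The tissue difference of GH9B13 was -0.04 with quantile normalization and between -0.05 and 0 in 5 fits that each left out 1 array (-0.05, -0.04, -0.02, -0.01 and 0; 0.07 at most). That of GH9C2 was -0.03 with quantile normalization and -0.12, -0.04, -0.01, -0.01 and 0 in 5 such fits (0.13 at most), and that of GH9B8 -0.05 without gir inflorescence replicate 1 (0.31 at most). The replicate block, which uses the replicate numbers, changed no call among the listed genes (3 in roots, 5 in inflorescences, 0 for the tissue difference). Over all probe sets the block gave 1281, 4865 and 3113.

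Median centring moved the median tissue ratio of all probe sets by -0.15 in Col-7 and -0.14 in gir, and the GH9B13 ratios to 0.10 (adjusted p = 0.35) and 0.11 (0.27), where they did not pass. It also moved the split of calls to 690 lower and 1037 higher in roots (878 and 758 as reported) and to 1577 and 2473 in inflorescences (1743 and 1744). Dim signals limit GH9A4, GH9B11 and GH9C1: their shares and log2 values are of measured signals, and only the folds given as at least a value allow for the dim range.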
